A study of Citrus trifoliata with 6 samples.

Results

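Lateral roots of the citrus rootstock Poncirus trifoliata were searched for 3 kinds of defence-related protein: inhibitors of proteases, germins, and the pathogenesis-related (PR) proteins. The genes were picked by words in the annotation that the tables carry for each gene, the name of its best match in a protein database. The search matched inhibitor names (trypsin, protease, subtilisin, Kunitz, miraculin, cystatin), germin, thaumatin and osmotin, pathogenesis-related, and the names of the PR-10 and major latex-like (MLP) group. It found 54 of the 22589 genes listed. The study compared plants that had received about 3000 spores of the arbuscular mycorrhizal fungus Glomus versiforme (Gv) per pot with control plants that had received no inoculum. The Gv inoculum was sand with spores, hyphae and colonized roots of another host plant. Both groups grew in sterile quartz sand with 20 μM phosphorus, and non-woody lateral roots were taken at 3 months, with 3 libraries per group, each from at least 9 plants out of different pots. Reads were aligned to the genome of sweet orange, Citrus sinensis, and only reads with a single place on it were counted.

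The Gv libraries held between 4.34 and 4.63 M reads on genes and the control libraries between 4.51 and 4.71 M. The phosphate transporter genes Cs7g29450 and Cs9g18560 and the exocyst gene Cs3g16120, which mark arbuscule-containing roots, had between 31 and 5257 reads in each Gv library and between 0 and 2 in each control library, so that no library went against its label. In Gv replicate 3 they were 5.92 to 10.4 times the mean of Gv replicates 1 and 2. The replicate 3 libraries of both groups stood apart from the others and deviated in the same direction, so each gene was tested both without a block for the replicate number and with one. The 9 genes annotated as chlorophyll-binding or small Rubisco subunits, a sign of green tissue, summed to 182 to 232 CPM (counts scaled to the size of the library) in Gv and 194 to 220 in the controls, and 0 of them was called with the block. The 3 genes with a Casparian strip annotation, a mark of the root endodermis, were too low to be tested. The 8 genes with other root annotations summed to 239, 291 and 153 CPM in Gv, against 186, 219 and 267 in the controls. Of these, 4 were tested and 0 were called with the block. The 1 gene annotated for senescence or wounding had 3.48, 2.78 and 0.456 CPM in Gv, against 4.21, 4.46 and 1.07 in the controls. It was thus lowest in replicate 3 of each group, and it was not called with the block. Whole roots hold many cell types, so that more cells of a type and more RNA per cell cannot be told apart here.

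Protease inhibitors are small proteins that block proteases, most of them by lying in the active site like a substrate that is not released. Those of the Kunitz type, to which the taste protein miraculin belongs, and the type I family act on serine proteases such as trypsin, chymotrypsin and subtilisin, while cystatins act on papain-like cysteine proteases. Germins and germin-like proteins are wall proteins of the cupin fold that bind manganese, and some act as oxalate oxidases or superoxide dismutases. PR proteins accumulate on attack by pathogens. They include the PR-1 proteins, the antifungal thaumatin-like proteins (PR-5) and the ligand-binding PR-10 proteins, which share their fold with the birch pollen allergen Bet v 1 and with MLPs. In Medicago truncatula, Kunitz inhibitors and a germin-like gene are known from arbuscule-containing roots.

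By annotation the 54 genes comprised 10 of the Kunitz and miraculin type, 5 cystatins, 4 other protease inhibitors, 1 gene of the lipid transfer and seed storage type, 14 germins, 5 in the PR-1 group, 8 PR-5 genes and 7 of the PR-10 and MLP group. The Kunitz and miraculin type also takes in genes annotated only as trypsin inhibitor, such as Cs9g08680. It includes Cs4g07220 too, annotated as an inter-alpha-trypsin inhibitor heavy chain-like protein. Together the 54 genes took between 0.339% and 0.346% of the reads in Gv libraries. In control libraries they took between 0.306% and 0.382%, and these ranges overlap. Of the 54 genes, 34 passed the filter on low counts and were tested. The other 20 had between 1 and 53 reads over all 6 libraries, and at most 17 in any library, so their changes were not detectable at this depth. The tested genes were mostly abundant, with 19 of the 34 in the top 10% of all listed genes by mean RPKM, the number of reads scaled by gene length and library total.

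To be called, a gene needed an adjusted p under 0.05 together with a log2 fold change (Gv over control) of 1 or more in size. Without the block edgeR's quasi-likelihood test called 0 of the 34 genes and 0.00% of all 16281 genes in either direction. It gave an unadjusted p under 0.05 for 4 members higher in Gv, against 3.0% of all genes, and for 0 lower in Gv, against 1.57%. With the block it called 4 of the 34 members higher, or 11.8%, against 0.958% of all genes, and 0 members lower, against 0.0369%. Its unadjusted p was under 0.05 for 8 members higher in Gv (5.44% of all genes) and 1 lower (3.56%). DESeq2, run without a block, called 4 members higher and 0 lower, against 1.21% and 0.0368% of the genes given an adjusted p. It gave none to 12 of the 54 genes. Its unadjusted p was under 0.05 for the same number of members, 4 higher and 0 lower, against 3.09% and 1.34%. The NOISeq criterion used in the study, re-implemented here and also without a block, placed 5 members higher and 0 lower, against 1.29% and 0.292% of all genes. The 3 genes that all 3 of these methods called were the trypsin inhibitor gene Cs9g08680 and the germin-like genes Cs2g10030 and Cs2g10000. These 3 genes passed the filter on low counts only through their Gv libraries, with 0 to 29 reads in single control libraries. They are 3 of the 4 members called with the block, so that share rests mostly on genes that entered by being high in Gv. The median log2 fold change of the 34 genes was 0.06, against -0.01 for all genes tested, and single values ran from -0.89 to 6.90. In 4 of the 34 members all Gv libraries lay above all controls (5.17% of all genes), and in 0 all lay below (3.99%). Cs9g08680, Cs2g10030 and Cs2g10000 are among these 4, so this share has the same limit. Libraries were also compared number by number, a pairing that the labels do not state. The Gv library was the higher one in all 3 numbers for 10 members (15.6% of all genes) and the lower one for 2 (15.3%).

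**Figure D1:**
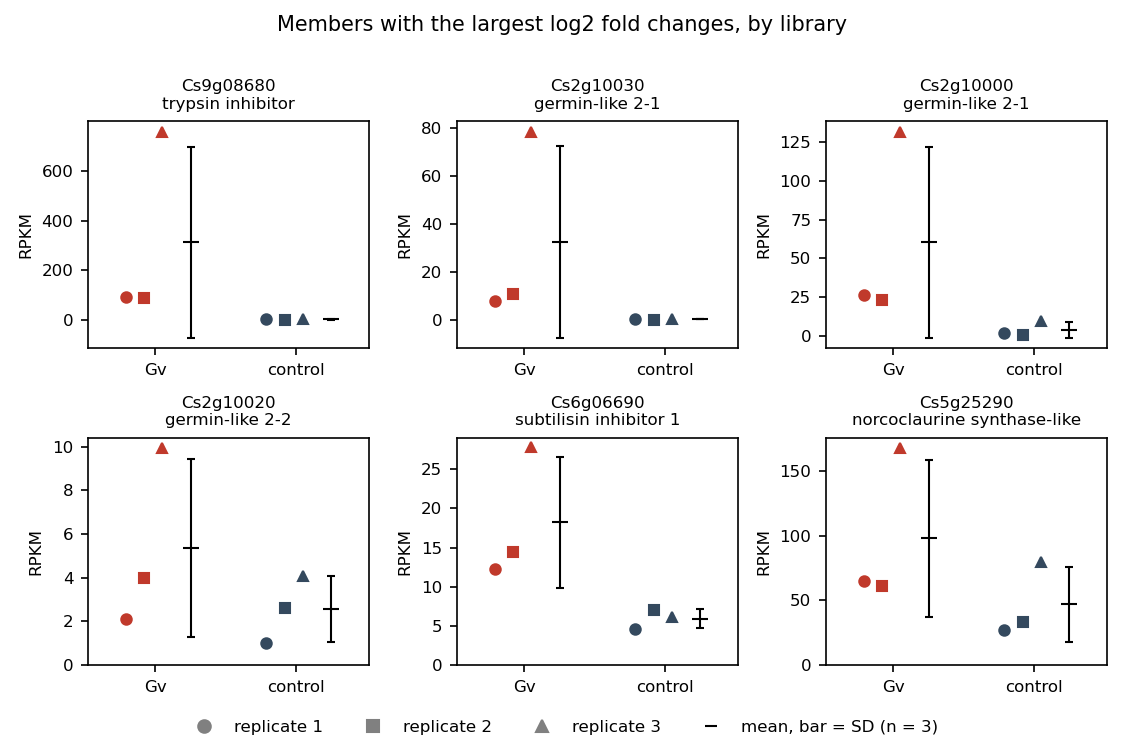
RPKM of the 6 members with the largest log2 fold changes in each library (symbols give the replicate number, red for Gv and dark blue for control), with the group mean and SD beside them (n = 3 each). Gv replicate 3 is the highest library in all 6 panels, at 757 RPKM for Cs9g08680, against 88.7 and 90.6 RPKM in the other Gv libraries and at most 4.04 RPKM in the controls.

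The strongest difference among the inhibitors was that of Cs9g08680, a gene of 329 bases whose best match is a trypsin inhibitor of M. truncatula. It had 131, 135 and 1082 reads in Gv replicates 1, 2 and 3, against 6, 1 and 5 reads in the controls. Every Gv library lay far above every control library, and Gv replicate 3 stood far above the others. Pooled over libraries and scaled by depth, Gv had 116 times the reads of the controls (95% exact interval 66.1 to 225, counting error only). In edgeR's quasi-likelihood test the log2 fold change was 6.82 (SE 1.26, adjusted p = 0.36). With the block it was 6.66 (SE 0.52, edgeR adjusted p = 0.00782), so the gene rose in the blocked test. DESeq2 gave an adjusted p of 8.26e-10. When Gv replicate 3 was left out the value was 5.04, and the test without the block then called the gene (edgeR adjusted p = 0.0225), as it did 0.410% of all genes higher in that run. Reads covered between 73.9% and 95.1% of the gene's length in Gv and between 14.9% and 47.4% in the controls. In Gv the gene averaged 312 RPKM ± 385, against 2.67 ± 1.79 in the controls (SD, n = 3 each). Its 757 RPKM in Gv replicate 3 was above the RPKM of every other inhibitor gene in any library.

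Next in size among the inhibitors was Cs6g06690, matched to a subtilisin inhibitor. It had 70, 87 and 157 reads in Gv, against 27, 43 and 36 in the controls. The groups did not overlap, and the difference was larger in number 3, at 4.66-fold, than in numbers 1 and 2, at 2.71-fold and 1.94-fold. Its log2 fold change was 1.6 (SE 0.36), and the adjusted p was 0.454 in edgeR's quasi-likelihood test, 0.116 with the block and 0.0184 in DESeq2. Leaving out Gv replicate 3 gave a log2 fold change of 1.17. It therefore passed in DESeq2 and by the NOISeq criterion, and in neither edgeR test.

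The abundant Kunitz and miraculin genes behaved otherwise. Cs5g13890, Cs5g13930 and Cs5g13960 have nearby identifiers on chromosome 5 and are annotated as miraculin-like protein 2 or as trypsin inhibitor. Cs5g13890 had 2516, 794 and 1006 reads in Gv, against 1694, 1788 and 102 in the controls. Cs5g13930 had 1052, 1660 and 554 reads in Gv, against 2152, 3545 and 280 in the controls. Cs5g13960 had 953, 316 and 538 reads in Gv, against 631, 718 and 88 in the controls. In all 3 genes control replicate 3 was the lowest of the 6 libraries, and the groups overlapped. Summed over these 3 genes, control replicate 3 was 11.7-fold below the mean of the other controls, while Gv replicate 3 was 1.72-fold below the mean of the other Gv libraries. The Gv level was thus 1.06 times the control level in number 1, 0.440 times in number 2 and 4.77 times in number 3.

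Another abundant gene, Cs2g16250 on chromosome 2, also matched to a trypsin inhibitor, had 132, 279 and 149 reads in Gv, against 318, 655 and 64 in the controls. Like Cs5g13930 it was lower in Gv in numbers 1 and 2 (0.434-fold and 0.409-fold) and higher in number 3 (2.49-fold). The log2 fold change was -0.89, with a 95% interval of -2.68 to 0.91 and an adjusted p of 1.00 (edgeR's quasi-likelihood test). In the blocked test without control replicate 3, where numbers 1 and 2 alone inform the comparison, it was called lower, at -1.24 (edgeR adjusted p = 0.0112), and so was Cs5g13930, at -1.05 (edgeR adjusted p = 0.0323). Without Gv replicate 3 the blocked test called the same 2 genes lower, but that run too rests on numbers 1 and 2 and is not a separate check. In these runs 0.344% of all genes (without control replicate 3) and 0.308% (without Gv replicate 3) were called lower, against 0.0369% with all 6 libraries, so lower calls were more frequent over all genes as well. The summed level of the 10 Kunitz and miraculin genes was 920 ± 236 CPM in Gv and 949 ± 735 in the controls (SD, n = 3 each), with an exact two-sided permutation p of 1. With 3 libraries against 3 such a test cannot give a p below 0.1. The direction of the sum was not stable. Its log2 ratio was -0.04 on CPM, 0.82 on summed RPKM and 0.42 without Cs5g13930, its most abundant gene by CPM. In Gv replicate 3 Cs9g08680 gave 757 of the summed 1009 RPKM. Without Cs4g07220 and Cs9g08680, a run chosen after seeing the data, the log2 ratio on CPM was -0.25.

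**Figure D2:**
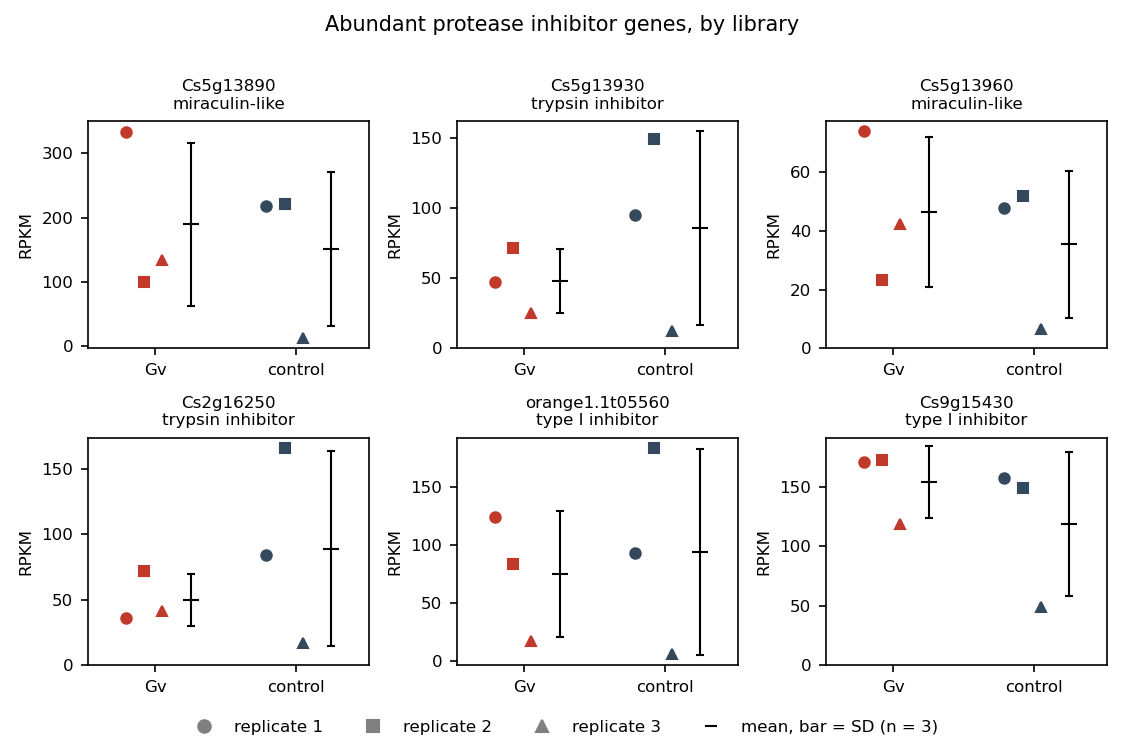
RPKM in each library of 6 protease inhibitor genes picked for display, which are not the 6 most abundant (symbols give the replicate number, red for Gv and dark blue for control), with the group mean and SD beside them (n = 3 each). The abundant cystatins Cs2g29230 and Cs3g07080 are not shown. The first was lowest in Gv replicate 3 (55.9 RPKM, against 74.5 in control replicate 3), and the second was highest in control replicate 3 (54.5 RPKM). In each panel control replicate 3 is the lowest library, for example at 13.0 RPKM for Cs5g13890, against 218 and 221 RPKM in the other controls and 99.8 to 333 RPKM in Gv.

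Reads on some of these genes fell on a small part of the gene model. They covered between 3.66% and 6.60% of the 5031 bases of Cs5g13930 and 8.61% of the 836 bases of Cs2g16250 in each of the 6 libraries. RPKM divides by the whole gene length, so the RPKM of both is not directly comparable with that of genes covered throughout. Whether all of these reads came from these 2 genes was not tested. The genes of the family may also share sequence, and reads with more than 1 place were not counted, so the split between them is uncertain. A second group of identifiers on chromosome 5, Cs5g16770, Cs5g16780 and Cs5g16850, whose best matches are miraculin-like proteins of citrus, had 9, 3 and 2 reads in Gv, against 8, 13 and 6 in the controls, summed over the 3 genes. Cs5g16960 had between 6 and 14 reads in every library. Cs4g07220 is annotated as an inter-alpha-trypsin inhibitor heavy chain-like protein, a name from an animal protein that is not itself a protease inhibitor. It had 319, 315 and 259 reads in Gv, against 297, 322 and 98 in the controls.

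The type I inhibitors are known in tomato and potato as wound-induced inhibitors of chymotrypsin-like and subtilisin-like proteases. Cs9g15430, the most abundant of the group by RPKM, had 599, 637 and 412 reads in Gv, against 568, 562 and 177 in the controls. The other, orange1.1t05560, had 349, 248 and 48 reads in Gv, against 268, 551 and 18 in the controls. Both were lowest in replicate 3 of each group. For orange1.1t05560 replicate 3 was 6.13-fold below the mean of replicates 1 and 2 in Gv and 23.7-fold below it in the controls. In the controls no other tested member had so large a gap between replicate 3 and the others, while in Gv 3 members had a larger one. Cs1g19393 is matched to an se60-like proteinase inhibitor, named after a small sulfur-rich protein of soybean that is related to defensins. It had 36, 109 and 11 reads in Gv, against 96, 97 and 34 in the controls, again lowest in replicate 3. None of these 3 genes was called by edgeR with or without the block, by DESeq2 or by the NOISeq criterion, and their log2 fold changes ran from -0.54 to 0.35.

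No cystatin was called by any of these methods, and for the abundant ones the difference was well bounded. Cs3g07080 had 539, 519 and 607 reads in Gv, against 550, 497 and 663 in the controls, with a log2 fold change of 0.00 (95% interval -0.36 to 0.37). Cs2g29230, the most abundant cystatin at 86.4 ± 26.8 RPKM in Gv and 86.0 ± 10.03 RPKM in the controls (SD, n = 3 each), had a log2 fold change of -0.00 (95% interval -0.65 to 0.64). For these 2 genes the intervals leave out a 2-fold change in either direction. Of the tested cystatins the one with the largest log2 fold change was Cs3g05800, with 96, 115 and 65 reads in Gv, against 59, 90 and 48 in the controls. It was higher in Gv in all 3 numbers, at 1.70-fold, 1.23-fold and 1.45-fold, with an edgeR adjusted p of 0.422 in the blocked quasi-likelihood test. Cs2g02100 had 156, 119 and 85 reads in Gv, against 94, 165 and 86 in the controls, and its groups overlapped. The lowest cystatin, Cs4g14780, had 2, 4 and 10 reads in Gv, against 1, 1 and 2 in the controls, and was too low to be tested, although its Gv libraries were all above its control libraries.

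The single gene of the lipid transfer and seed storage type, Cs6g07220, had 1536, 1199 and 913 reads in Gv, against 977, 1122 and 740 in the controls. Proteins of this type carry lipids in a hydrophobic pocket, and the family name includes inhibitors of proteases and of amylases. It was higher in Gv in all 3 numbers, by 1.03-fold to 1.64-fold, and the groups overlapped. In the blocked test the edgeR adjusted p was 0.572.

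**Figure D3:**
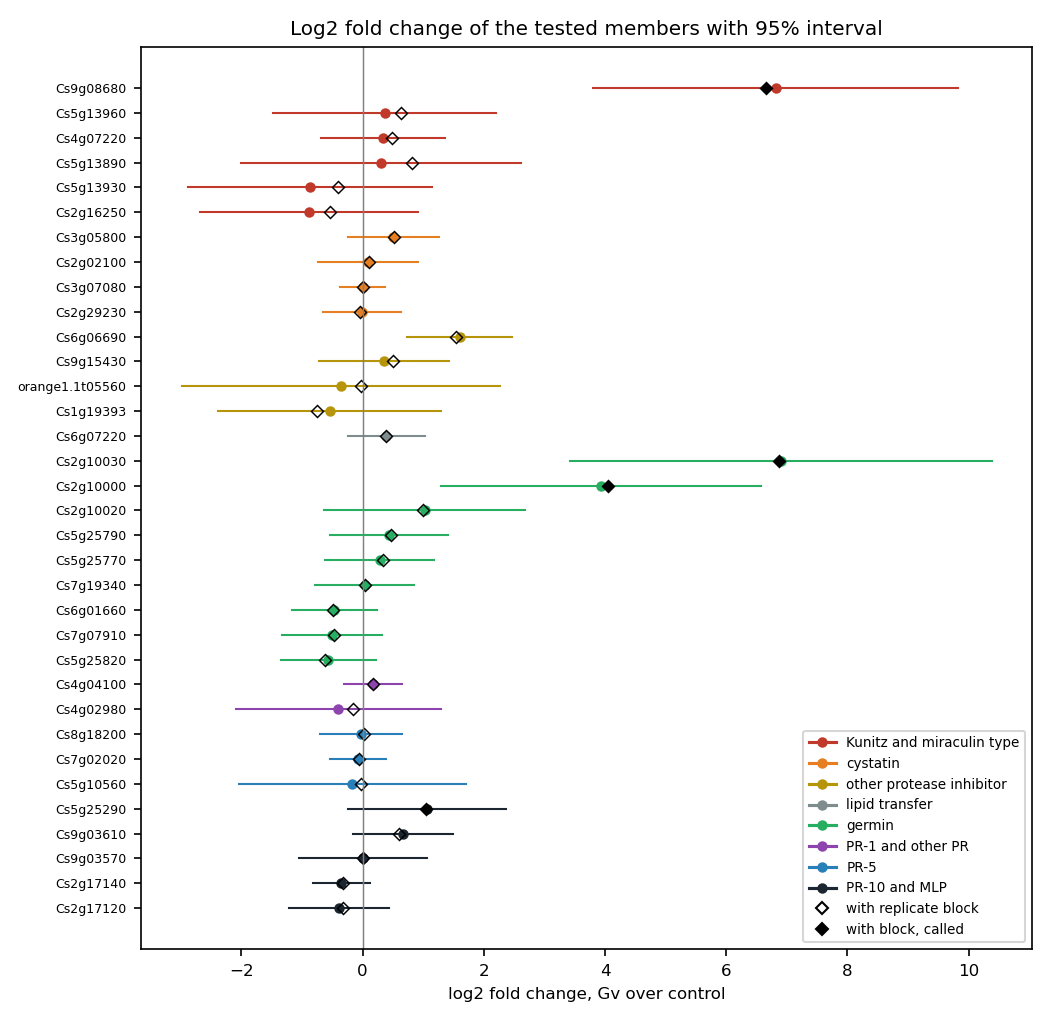
Log2 fold change (x axis, Gv over control) of the 34 tested members, grouped by family and ordered within it, with the 95% interval from the test without the block (circles and lines) and the value with the replicate block (diamonds, filled where called). The 4 filled diamonds are Cs9g08680, Cs2g10030, Cs2g10000 and Cs5g25290, and most other values lie close to 0.

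Of the 9 germins tested, the blocked test called 2, and both belong to 3 genes with nearby identifiers on chromosome 2. Cs2g10030, matched to the germin-like protein 2-1 of grape, had 22, 32 and 221 reads in Gv, against 1, 0 and 1 in the controls. Pooled and scaled, Gv had 142 times the reads of the controls (95% exact interval 38.9 to 1177, counting error only). The log2 fold change was 6.90 by edgeR's quasi-likelihood test (SE 1.45, adjusted p = 0.377). With the block it was 6.88 (SE 0.53, edgeR adjusted p = 0.00771), so this germin gene rose in the blocked test. Reads covered between 74.4% and 95.5% of its length in Gv, and at most 7.56% in the controls. Leaving out Gv replicate 3 gave 5.12 without the block (edgeR adjusted p = 0.0506).

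Cs2g10000, matched to the same grape protein, had 75, 70 and 373 reads in Gv, against 5, 1 and 29 in the controls. Its groups did not overlap, and replicate 3 was the highest library of each group. By edgeR's quasi-likelihood test the log2 fold change was 3.93 (SE 1.104, adjusted p = 0.642). With the block it was 4.05 (SE 0.30, edgeR adjusted p = 0.00724), so it too rose in the blocked test. Without the block it was 2.66 when Gv replicate 3 was left out and 5.82 when control replicate 3 was left out. In the blocked test Cs2g10000 was also called with any one library left out, and so was Cs9g08680. Cs2g10030 was called in 5 of the 6 runs and not without Gv replicate 3. With the block, a library without its same-numbered partner does not inform the comparison. Leaving out either library of a number thus gives almost the same run. For Cs2g10030 the log2 fold change was 5.43 without Gv replicate 3 and 5.44 without control replicate 3. The 6 runs are therefore not 6 separate checks. Cs2g10020, matched to the germin-like protein 2-2, had 6, 12 and 28 reads in Gv, against 3, 8 and 12 in the controls. For this gene the log2 fold change was 1.03 (95% interval -0.63 to 2.68), and 0.99 with the block (95% interval 0.09 to 1.90, edgeR adjusted p = 0.512). Near-identical copies could share reads that were not counted, so that their single levels are uncertain.

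The abundant germins did not follow them. Cs6g01660, a germin-like protein 5-1, had the highest RPKM of all 54 genes and held 18.1% of their summed mean RPKM. It had 2355, 4592 and 3500 reads in Gv, against 5007, 3672 and 5997 in the controls. The groups overlapped, and the log2 fold change was -0.46, with a 95% interval of -1.16 to 0.24. The 6 genes from Cs5g25660 to Cs5g25820 on chromosome 5 are all matched to a germin-like protein of lemon, and only some of them had more than a few reads. Cs5g25660, Cs5g25680 and Cs5g25760 had 1 read each over all libraries, and all of these reads were in Gv.

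Of the other 3 copies, Cs5g25820 had 338, 792 and 728 reads in Gv, against 761, 839 and 1201 in the controls, and was lower in Gv in all 3 numbers, at 0.465-fold, 0.906-fold and 0.648-fold. Cs5g25790 had 412, 427 and 778 reads in Gv, against 303, 279 and 656 in the controls, and was higher in all 3 numbers, at 1.42-fold, 1.47-fold and 1.27-fold. Neither passed the blocked test, with edgeR adjusted p-values of 0.426 and 0.205. Cs5g25770 had 70, 85 and 113 reads in Gv, against 50, 55 and 122 in the controls. Cs7g07910 and Cs7g19340 had between 14 and 37 reads in every library, and Cs5g14300 and Cs5g14330 had at most 14. The summed germin level was 1129 ± 310 CPM in Gv and 1397 ± 313 in the controls (SD, n = 3 each), with an exact two-sided permutation p of 0.4. Without Cs6g01660 the log2 ratio of the sums was 0.11, against -0.31 with it.

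PR-1 is the classic marker of salicylate-dependent defence in Arabidopsis. Of the 5 genes in its group, Cs8g03490, Cs8g03500 and Cs2g05870 had between 4 and 10 reads each over all 6 libraries, with 0 to 3 in any Gv library and 0 to 6 in any control library. Cs4g02980 had 48, 36 and 36 reads in Gv, against 94, 58 and 9 in the controls, and lay 8.79-fold below the mean of the other controls in control replicate 3. The last gene, Cs4g04100, is a pathogenesis-related homeodomain protein, named in parsley as a DNA-binding regulator of a PR gene and not itself a PR protein. It had 68, 76 and 92 reads in Gv, against 72, 60 and 84 in the controls, with a log2 fold change of 0.16 (95% interval -0.31 to 0.64).

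None of the 3 tested PR-5 genes was called by edgeR with or without the block, by DESeq2 or by the NOISeq criterion. Cs8g18200, matched to a thaumatin-like protein of rough lemon, carried 76.3% of the RPKM of the 8 genes. It had 399, 339 and 345 reads in Gv, against 475, 419 and 233 in the controls, with a log2 fold change of -0.03 (95% interval -0.71 to 0.65). Cs7g02020 had 112, 136 and 96 reads in Gv, against 140, 125 and 102 in the controls, and a log2 fold change of -0.07 (95% interval -0.53 to 0.40). Cs5g10560 had 65, 66 and 19 reads in Gv, against 65, 95 and 10 in the controls. It was low in replicate 3 of both groups, at 3.37-fold below the mean of replicates 1 and 2 in Gv and 8.34-fold below it in the controls. The other 5 genes, among them the osmotin gene Cs9g06470 with 8, 10 and 9 reads in Gv against 10, 7 and 6 in the controls, were too low to be tested. Of these, orange1.1t03024 had 3, 4 and 17 reads in Gv, against 10, 7 and 4 in the controls. Cs5g10550, next to Cs5g10560 by identifier, had 0, 7 and 3 reads in Gv, against 9, 14 and 4 in the controls. Cs7g02030 and orange1.1t03023 had at most 1 read in any library.

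In the PR-10 and MLP group the gene Cs5g25290 differed. It is matched to an S-norcoclaurine synthase, the enzyme of the PR-10 fold that makes the first benzylisoquinoline alkaloid in meadow rue and poppy, although most plant genes with this match are not known to do so. It had 439, 434 and 1127 reads in Gv, against 189, 244 and 563 in the controls. The groups overlapped because control replicate 3 lay above Gv replicates 1 and 2, but within each number the Gv library was higher, at 2.43-fold, 1.71-fold and 2.14-fold. Without the block the log2 fold change was 1.06 (95% interval -0.24 to 2.36, edgeR adjusted p = 1.00), and with it 1.05 (95% interval 0.72 to 1.38, edgeR adjusted p = 0.0364). Without the block it was 0.43 when Gv replicate 3 was left out and 1.65 when control replicate 3 was left out. With the block the gene rose, by a value only just above the limit of 1. It was called in none of the 6 blocked runs with 1 library left out, although runs without either library of a number are almost the same. In DESeq2 its unadjusted p was 0.0536 and its adjusted p 1.00.

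Of the other genes of this group, Cs2g17140, annotated as a major latex-like protein and the second most abundant of the 54 genes by RPKM, had 778, 905 and 777 reads in Gv, against 1027, 822 and 1371 in the controls. Its neighbour Cs2g17120 had 123, 127 and 166 reads in Gv, against 149, 118 and 296 in the controls. Both had the highest library in control replicate 3, with log2 fold changes of -0.33 and -0.32 and edgeR adjusted p-values of 0.692 and 0.705 in the blocked test. Cs9g03610, matched to a Bet v 1 allergen of oak, had 130, 335 and 174 reads in Gv, against 162, 132 and 111 in the controls. Its neighbour Cs9g03570, matched to STH-2, a PR-10 protein of potato that is induced by elicitors, had 34, 46 and 19 reads in Gv, against 31, 49 and 20 in the controls, so that the libraries of the same number were close. Cs7g08260 and Cs7g22660 had at most 3 reads in any library.

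**Figure D4:**
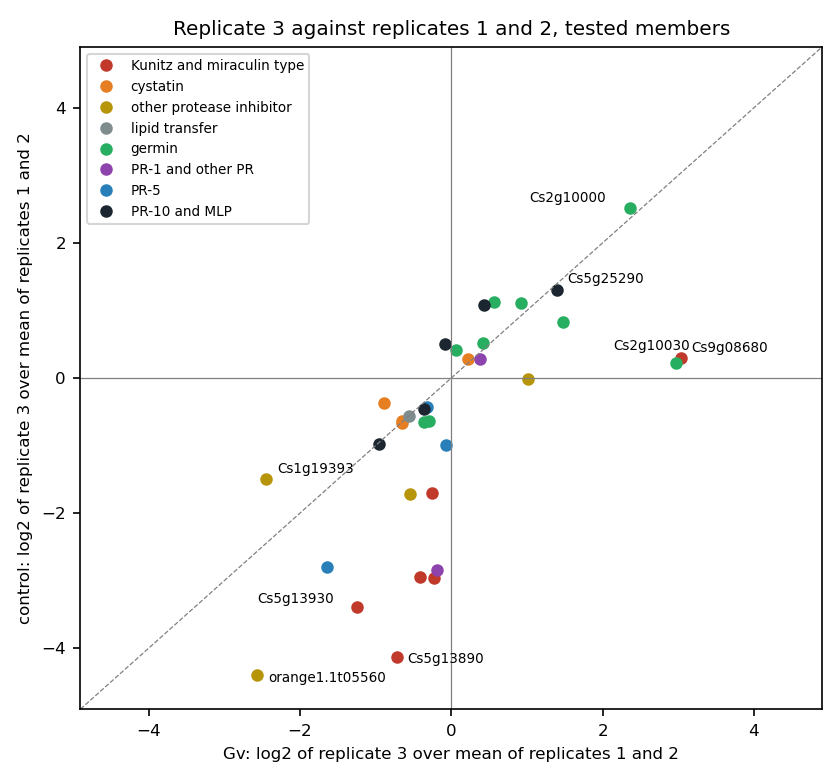
For each of the 34 tested members, log2 of replicate 3 over the mean of replicates 1 and 2 (CPM plus 0.5) in Gv (x axis) and in the controls (y axis), coloured by family, with the dashed line at equal values. The Kunitz genes Cs5g13890 and Cs5g13930 and the type I gene orange1.1t05560 lie far down, where control replicate 3 was low, while Cs9g08680 and Cs2g10030 lie far to the right, where Gv replicate 3 was 8.32 and 8.43 times the mean of the other Gv libraries.

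Many members followed the replicate number, as did many of all genes tested. In 14 of the 34 members, or 41.2%, replicate 3 was the lowest library of each group, against 27.6% of all genes tested. In 8 members, or 23.5%, it was the highest of each group, against 27.9% of all genes. Replicate 3 was lowest in both groups for 3 and highest for 0 of the 4 other protease inhibitors, for 3 and 1 of the 4 tested cystatins and for 2 and 0 of the 6 tested Kunitz and miraculin genes. It was lowest for 2 and highest for 4 of the 9 tested germins, and lowest for 1 and highest for 2 of the 5 tested PR-10 and MLP genes. These counts are small, and the families were not tested against each other. Control replicate 3 had at most 0.5 times the level of each of the other controls in 10 of the 34 members, or 29.4%, against 8.88% of all genes. These 10 were 5 of the 6 tested Kunitz and miraculin genes (Cs4g07220 among them), 3 of the 4 other protease inhibitors, Cs4g02980 and Cs5g10560. In Gv replicate 3 the same held against the other Gv libraries for 3 members, while 5.10% of all genes did so. The labels do not say what the replicate number stands for.

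The genes called with the block did not all share this pattern. In Gv replicate 3, Cs9g08680 and Cs2g10030 were at 8.32 and 8.43 times the mean of the other Gv libraries. In control replicate 3 they were at 1.37 and 1.92 times the mean of the other controls, on counts of 0 to 6. For both genes control replicate 1 was the highest control, at 1.33 and 0.222 CPM against 1.07 and 0.213 in control replicate 3. Against the same means, Cs2g10000 was at 5.25 times in Gv replicate 3 and 9.29 times in control replicate 3. Cs5g25290 was at 2.64 times in Gv replicate 3 and 2.49 times in control replicate 3. The marker genes of arbuscule-containing roots were also highest in Gv replicate 3, as given above. Whether the extent of colonization had a part in this was not tested.

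Protease families and further PR families were counted in the same blocked test, which called 0.958% of all genes higher and 0.0369% lower. The lipid transfer list includes Cs6g07220, described above. The test called 1 of 7 subtilase genes, 3 of 11 cysteine protease genes and 0 of 13 aspartic protease genes higher in Gv. Of the PR families, it called 2 of 12 chitinase genes (PR-3 and related), 1 of 4 defensin, snakin and GASA genes (PR-12 and related), 0 of 2 beta-1,3-glucanase genes (PR-2) and 0 of 9 lipid transfer genes (PR-14) higher. No gene of these lists was called lower. Apart from the chitinase gene orange1.1t01780, the called genes had few or no control reads and passed the filter on low counts only through Gv. Of the lists with 0 calls, an unadjusted p under 0.05 in the blocked test was found for 2 beta-1,3-glucanase genes, both lower in Gv, for 1 lipid transfer gene higher and 1 lower, and for 1 aspartic protease gene higher, against 5.44% of all genes higher and 3.56% lower. DESeq2 and the NOISeq criterion also called 0 genes in these 3 lists. The test without the block called 0 genes in every list. The defensin-like gene orange1.1t05521 had 110, 115 and 727 reads in Gv, against 0, 1 and 0 in the controls, with a log2 fold change of 9.46 in the blocked test (edgeR adjusted p = 0.00269). The class I chitinase gene orange1.1t01780 had 91, 120 and 239 reads in Gv, against 46, 43 and 98 in the controls. Its value with the block was 1.29 on the log2 scale (edgeR adjusted p = 0.0267). The other called chitinase gene, orange1.1t00435, had 104, 165 and 1100 reads in Gv, against 10, 7 and 8 in the controls. Its value with the block was 5.44 (edgeR adjusted p = 0.0298). In the subtilase list the called gene was Cs5g09920, with 1205, 1540 and 9885 reads in Gv, against 1, 1 and 0 in the controls.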

How the data were processed

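RNA from lateral roots was sequenced as 6 libraries, 3 per group. Per the study's methods, filtered reads were placed on the genome of Citrus sinensis by SOAPaligner/SOAP2, with 2 mismatches allowed. The authors deposited the raw count of uniquely aligned reads of each gene. Beside it the authors deposited RPKM, in which counts are divided by gene length and library total, and the percent of each gene's length that reads covered. The annotation version is not given in the sources used here. A gene not listed in a library was taken as 0 reads. Library totals of 4.34 to 4.71 M reads limit the precision of genes with few reads.

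The 54 genes and the lists were chosen with earlier results of these data known. For the main test edgeR 4.0.16 was run in R 4.3.3 on the counts (expression filter, TMM scaling, quasi-likelihood test, Benjamini-Hochberg over 16281 genes), for Gv against control. CPM values use the TMM-scaled totals. The SE and interval of a log2 fold change come from the test's F value. Alternatives were the replicate number as a block, DESeq2 1.42.0, other scaling and filters, and each library left out. Further alternatives were limma 3.58.1 on log2 RPKM after adding 0.5 or 0.1, and the NOISeq criterion (probability of at least 0.8, 2-fold). The latter was re-implemented in Python 3.11.15 with 0.5 read in place of 0. Over all genes it placed 291 higher and 66 lower, more in each direction than the paper reports at the same limits. The edgeR, DESeq2 and NOISeq procedures and limma with 0.5 added were tested on simulated counts with known changes.

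Neither the labels nor the paper say that the numbers pair the libraries. Across genes, same-numbered libraries of the groups departed from their group's mean together, with r = 0.36, 0.48 and 0.61 for numbers 1, 2 and 3, all above 0.1, so the numbers were taken as pairs. Pairs crossed between numbers 1 and 2 correlated as well (0.43 and 0.27), so number 3 alone stands apart. Departures from a group's mean cancel over its 3 libraries. A shift shared by the number 3 libraries therefore also makes those of numbers 1 and 2 correlate. The r values of numbers 1 and 2 thus do not show that these libraries are pairs. The blocked test and the fold values by number rest on that matching, and the crossed matching was not run. Named genes were, in each family with at least 3 genes tested (not the PR-1 group or the lipid transfer gene), the most abundant and those with the largest and smallest log2 fold change, the genes called with the block, and 6 genes whose replicate 3 lay farthest from the others in both groups. Other members are given to account for all 54 genes and were described after their values were seen.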

Additional observations from a re-analysis of the deposited data

How the results depend on the processing

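Calls depended on the method and on how the replicate number was treated. The edgeR test without the block called 0 members. It also called 0 with library totals or upper-quartile scaling, without a filter, with a filter at a mean of 10 reads, and without the fold limit. The runs with other scaling or filters called 0 of all genes as well. Both limma fits, also without a block, called 0 members. Of all 16281 genes they called 22 higher with 0.5 added and 73 higher with 0.1 added, and 0 lower. With the replicate block edgeR called 4 members. DESeq2 and the NOISeq criterion, neither of which had a block, called 4 and 5. All of these were higher in Gv. Without the block and with 1 library left out, 0 to 1 were called, the 1 being Cs9g08680 without Gv replicate 3, where 68 of all genes were called higher. With the replicate block and 1 library left out, 3 to 5 were called, of which 2 were lower in Gv without replicate 3 of either group. These runs were chosen after seeing the data, and those without either library of a number rest on almost the same comparison. Over all genes these runs called 117 to 187 higher, and 51 and 57 lower without replicate 3 of Gv or control, against 156 higher and 6 lower with all libraries. The cause of these differences was not tested.

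Directions near 0 turned. The log2 ratio of the summed Kunitz and miraculin level was -0.04, but 0.82 on RPKM sums and 0.42 without Cs5g13930, its most abundant gene by CPM. It was -0.25 without Cs4g07220 and Cs9g08680, and -0.56 to 0.53 with 1 library left out. That of the other protease inhibitors was 0.17, but -0.055 without its most abundant gene and -0.25 to 0.62 with 1 library left out. That of the germins was -0.31, but 0.11 without Cs6g01660. With 1 library left out, the ratios ranged from -0.076 to 0.15 for cystatins, -0.26 to 0.22 for the PR-1 group, -0.32 to 0.12 for PR-5 and -0.049 to 0.37 for PR-10 and MLP. With same-numbered libraries as pairs (replicate block), the exact sign-flip p of the 8 sums was 0.25 to 1, where 0.25 is the smallest it can give.

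Of the named genes, the log2 fold change of Cs2g29230 turned to 0.0078 with library totals. In limma with 0.1 and 0.5 added, Cs5g10560 turned to 0.16 and 0.11, Cs8g18200 to 0.048 and 0.047, and orange1.1t05560 to 0.25 and 0.24. With the replicate block Cs8g18200 turned to 0.027. With 1 library left out, the values ranged from -0.63 to 0.075 for Cs2g17120, -0.20 to 0.24 for Cs2g29230, -0.66 to 0.44 for Cs5g10560, -0.41 to 0.72 for Cs5g13890, -0.29 to 0.18 for Cs8g18200, -0.024 to 0.59 for Cs9g15430 and -0.95 to 0.62 for orange1.1t05560. With the replicate block and Gv or control replicate 1 left out, Cs8g18200 turned to 0.14 and 0.13. With replicate 2 left out instead, the values were 0.23 and 0.22 for Cs8g18200, 0.38 and 0.39 for Cs5g10560, 0.028 and 0.024 for Cs5g13930, and 0.79 and 0.79 for orange1.1t05560. With replicate 3 left out they were 0.12 and 0.13 for Cs2g29230 and -0.28 and -0.28 for Cs5g13890. No gene that turned was called with all 6 libraries.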
